A study of Daphnia magna with 56 samples.

Results

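Whole female Daphnia magna given the lowest exposures of a gamma radiation study were compared with unexposed animals after 8 days. The lowest exposures were 0.4 mGy/h (4 libraries) and 1 mGy/h (4 libraries), 8 libraries in all, and the controls were 4 libraries at 0 mGy/h, so that 12 of the 56 libraries of the series entered this comparison. They were chosen by the dose rate and the day on their labels. The other day 8 libraries, 4 each at 4, 10, 40 and 100 mGy/h, served to estimate the spread and to place the 2 lowest dose rates in the whole range. The 28 libraries of day 4 were used for the comparison between days.

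All groups were wild-type juveniles, 8 days old at sampling on day 8, and the series describes exposure from the neonate stage. Animals of every group were kept in small static plastic beakers of M7 medium, and the sources used here do not give the number of animals or beakers behind a library. The replicates are therefore separate libraries of 1 group, and the p-values measure the spread between these libraries. Each dose rate was 1 group, so a dose rate and anything else shared by its 4 libraries cannot be told apart.

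Gamma radiation breaks DNA strands and splits water into reactive oxygen species, and animal cells answer with DNA repair, arrest of the cell cycle and antioxidant enzymes. Daphnia magna is a freshwater crustacean that normally reproduces without males, and it is a standard species of chronic toxicity tests. The dose rates described here are the low end of the range, and the title of the series places the study in the search for the dose rate at which transcript levels first depart from the control.

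The 12 libraries held 14032254 to 14605939 counts each, the largest being 1.04 times the smallest, and 10422 to 10676 transcript records had at least 1 count. Of 23570 records, 9367 had enough counts on day 8 to be tested. A record is 1 RefSeq model transcript, and the word transcript stands for a record below. No pair of the 12 libraries agreed within sampling noise. Symbols, where matched, were LOC numbers without a description, so no function is given for any transcript. Differences were tested with edgeR's quasi-likelihood test, in which all 28 day 8 libraries share the estimate of spread, and a transcript was called when its p-value after Benjamini-Hochberg adjustment (adjusted p) was under 0.05. Levels are CPM (counts scaled to a common size) with TMM factors, and fold changes are exposed over control.

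With 0.4 and 1 mGy/h pooled, 8 of the 9367 tested transcripts changed relative to 0 mGy/h, which is 0.0854% of those tested, and all 8 rose. The rises ran from 1.20-fold in XM_032932695.1 (LOC116925932) to 2.44-fold in XM_032927704.1 (LOC116921416), and that was the single change of at least 2-fold. The other 6 were XM_032942389.1, XM_032939974.1, XM_032937702.1 (LOC116930306), XM_032935909.1 (LOC116928792), XM_032941560.1 and XM_032936356.1 (LOC116929203). At an unadjusted p under 0.05 there were 864 transcripts (9.22%), where 468 would come from a uniform spread of p-values. The median log2 fold change over all tested transcripts was 0.0053, beside a median SE of 0.12. In 33 transcripts (0.352%) all 8 exposed libraries lay above all 4 controls, and in 83 (0.886%) they lay below all 4.

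The 8 calls were sensitive to single controls. The count was 0 without control replicate 1 or control replicate 3, 2 without control replicate 4, and 5 without control replicate 2. Among the exposed libraries, it was 5 without replicate 1 or 2 at 0.4 mGy/h or replicate 1 at 1 mGy/h, and 4 without replicate 4 at 1 mGy/h. No call was made in a fit to the 12 libraries alone, where 1272 transcripts had an unadjusted p under 0.05.

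**Figure D1:**
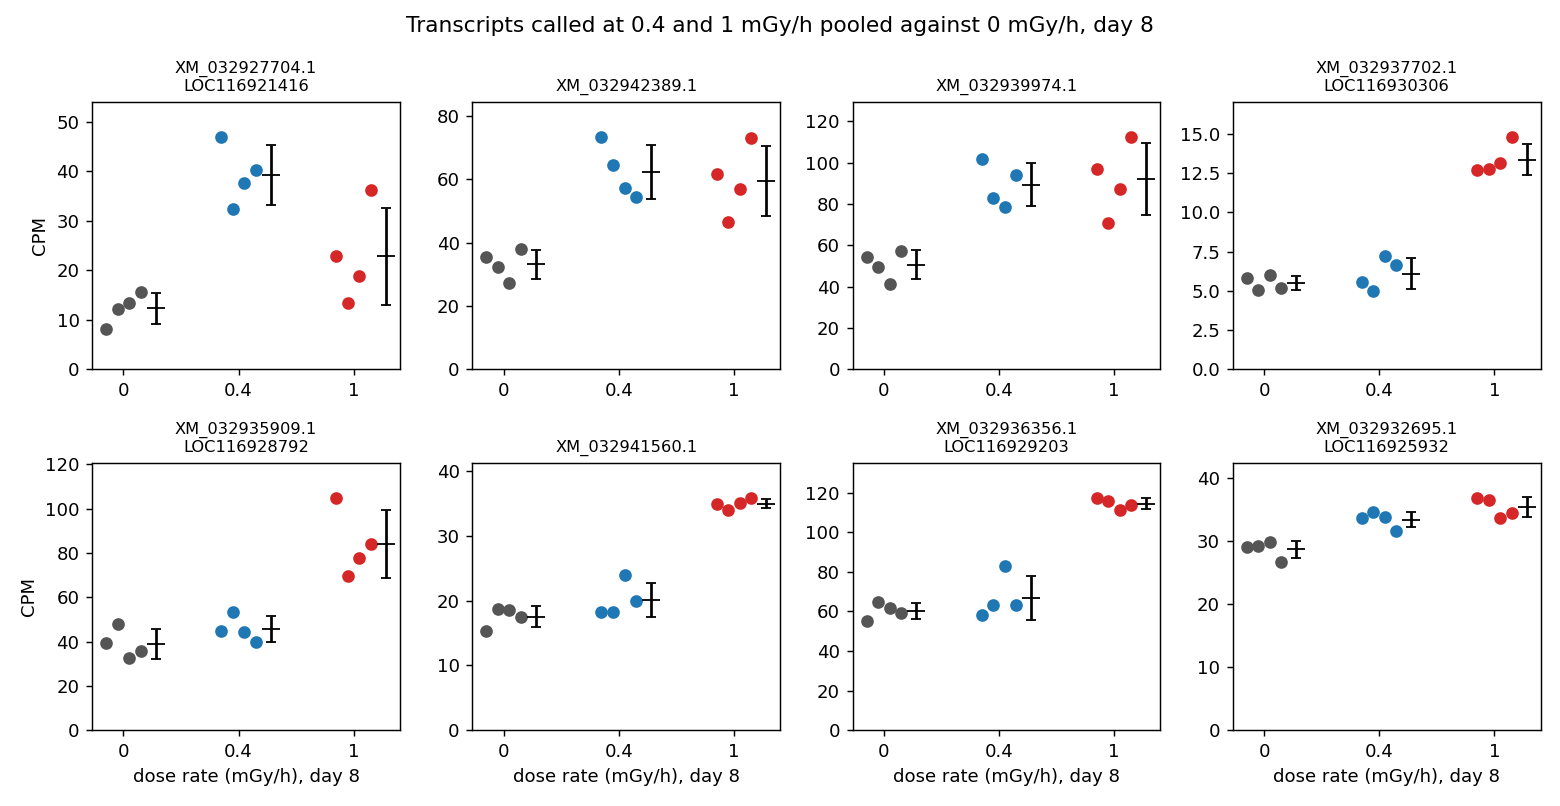
Levels in CPM (vertical axis) of the 8 transcripts called at 0.4 and 1 mGy/h pooled, in the 4 libraries of each of the 0, 0.4 and 1 mGy/h groups of day 8 (horizontal axis, low to high). Points are libraries, and the bar beside them is the mean ± SD (n = 4). XM_032942389.1, XM_032939974.1 and XM_032932695.1 stood above the controls at both dose rates, XM_032937702.1, XM_032935909.1, XM_032941560.1 and XM_032936356.1 mainly at 1 mGy/h, and XM_032927704.1 mainly at 0.4 mGy/h.

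A pair of transcripts rose at both dose rates. XM_032942389.1 had 73.5, 64.6, 57.2 and 54.6 CPM at 0.4 mGy/h, beside 61.6, 46.7, 56.8 and 73.2 CPM at 1 mGy/h, against 35.3, 32.4, 27.1 and 37.9 CPM at 0 mGy/h. XM_032939974.1 had 101.8, 83.1, 78.7 and 94.1 CPM at 0.4 mGy/h, beside 97.1, 70.9, 87.2 and 112.6 CPM at 1 mGy/h, against 54.3, 49.7, 41.2 and 57.2 CPM at 0 mGy/h. In both, every exposed library lay above every control, and the 2 exposed groups overlapped each other. The pooled log2 fold change of XM_032942389.1 was 0.88 (SE 0.13, edgeR adjusted p = 0.00804), and it was the only transcript called at each dose rate, with 0.91 at 0.4 mGy/h (adjusted p = 0.0204) and 0.84 at 1 mGy/h (adjusted p = 0.00848). For XM_032939974.1 the pooled log2 fold change was 0.84 (SE 0.14, edgeR adjusted p = 0.00804), with 0.82 at 0.4 mGy/h, where the adjusted p was 0.0584, and 0.86 at 1 mGy/h, where it was 0.00848. Leaving out 1 of the 12 libraries at a time kept the pooled call in 10 of 12 fits for each, and the highest adjusted p was 0.0666 for XM_032942389.1 and 0.0922 for XM_032939974.1.

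The levels of this pair were also above the control mean at 4 to 100 mGy/h, a difference that was not tested here. Over the 16 libraries at 4 to 100 mGy/h, XM_032942389.1 averaged 56.8 ± 9.14 CPM (SD), and its lowest library of the 16, at 39.0 CPM, was above the highest control. The difference of 0.4 and 1 mGy/h from the mean of 4, 10, 40 and 100 mGy/h was 0.11 on the log2 scale (SE 0.09, edgeR adjusted p = 0.51). For XM_032939974.1 the mean at 4 to 100 mGy/h was 82.01 ± 14.2 CPM (SD, n = 16), with a lowest library of 51.3 CPM that lay inside the control range, and the same difference was 0.15 (SE 0.09, edgeR adjusted p = 0.356). The levels of the pair moved together over the 28 day 8 libraries, with a Pearson correlation of log2 CPM of 0.968 (0.905 over the 28 day 4 libraries), and reads shared between near-identical records were not examined.

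On day 4 neither transcript of the pair was called at 0.4 and 1 mGy/h pooled against 0 mGy/h. XM_032942389.1 averaged 17.5 ± 2.52 CPM at 0.4 mGy/h, beside 17.0 ± 0.993 CPM at 1 mGy/h, against 17.1 ± 2.45 CPM at 0 mGy/h (SD, n = 4 each). XM_032939974.1 averaged 26.0 ± 1.89 CPM at 0.4 mGy/h, beside 25.4 ± 0.618 CPM at 1 mGy/h, against 23.9 ± 1.71 CPM at 0 mGy/h (SD, n = 4 each). The pooled effect on day 8 minus that on day 4 was 0.87 on the log2 scale for XM_032942389.1 (SE 0.17) and 0.75 for XM_032939974.1 (SE 0.15). Neither difference between days passed the test (edgeR adjusted p = 0.0762 for each).

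XM_032932695.1 (LOC116925932) showed a small and even rise. Its levels were 33.6, 34.6, 33.8 and 31.7 CPM at 0.4 mGy/h, beside 36.9, 36.5, 33.7 and 34.4 CPM at 1 mGy/h, against 29.0, 29.2, 29.8 and 26.7 CPM at 0 mGy/h. The 8 exposed libraries lay above the 4 controls, and the pooled log2 fold change was 0.26 (SE 0.05, edgeR adjusted p = 0.0428). The call rested on single libraries, since 2 of the 12 fits without 1 library kept it. On day 4 the log2 fold change was 0.05 (SE 0.05, edgeR adjusted p = 0.691).

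XM_032927704.1 (LOC116921416) was highest at 0.4 mGy/h on day 8. It had 47.0, 32.3, 37.6 and 40.3 CPM at 0.4 mGy/h, beside 23.0, 13.4, 18.8 and 36.2 CPM at 1 mGy/h, against 8.16, 12.1, 13.3 and 15.6 CPM at 0 mGy/h. All 4 libraries at 0.4 mGy/h were above the controls, while replicate 2 at 1 mGy/h was within the control range. The log2 fold change was 1.68 at 0.4 mGy/h (SE 0.28, edgeR adjusted p = 0.0204) and 0.89 at 1 mGy/h (SE 0.28, edgeR adjusted p = 0.398). The direct difference, 1 minus 0.4 mGy/h, was -0.78 (SE 0.27) and did not pass the test (edgeR adjusted p = 0.731), so a difference between the dose rates was not shown. The pooled call was kept in 2 of 12 fits without 1 library. At 4 to 100 mGy/h the transcript averaged 21.5 ± 5.71 CPM (SD, n = 16).

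Taken alone, 0.4 mGy/h gave 2 calls against 0 mGy/h (0.0214% of 9367), XM_032927704.1 and XM_032942389.1, both higher. At an unadjusted p under 0.05 there were 451 transcripts (4.81%), close to the 468 of a uniform spread of p-values. The count of calls was 0 without any 1 of control replicates 1, 2 and 3 or replicates 1, 2 and 3 at 0.4 mGy/h, and 1 without replicate 4 at 0.4 mGy/h. It was 4 without replicate 1 or replicate 2 at 1 mGy/h, which enter this comparison through the filter, the scaling and the shared estimate of spread. A fit to the libraries at 0, 0.4 and 1 mGy/h alone gave 0 calls and 719 transcripts with an unadjusted p under 0.05.

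At 1 mGy/h alone, 24 transcripts changed against 0 mGy/h (0.256% of 9367), of which 20 rose and 4 fell, and 10 of them changed at least 2-fold. Both single comparisons use the same 4 controls. At an unadjusted p under 0.05 there were 889 transcripts (9.49%). The count was 9 without control replicate 3 or control replicate 4 and 11 without replicate 1 at 1 mGy/h, and 11 in a fit to the libraries at 0, 0.4 and 1 mGy/h alone. For 7 of the 24 the call was kept in all 12 fits that left out 1 library: XM_032937702.1, XM_032941560.1, XM_032936356.1, XM_032935909.1, XM_032922736.1 (LOC116917287), XM_032938532.1 and XM_032941092.1 (LOC116933273).

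Of those 7, 4 were also called with the dose rates pooled. XM_032937702.1 (LOC116930306) had 12.7, 12.8, 13.2 and 14.8 CPM at 1 mGy/h, beside 5.57, 5.01, 7.19 and 6.62 CPM at 0.4 mGy/h, against 5.80, 5.02, 5.99 and 5.16 CPM at 0 mGy/h. XM_032941560.1 had 34.8, 34.0, 35.1 and 35.8 CPM at 1 mGy/h, beside 18.3, 18.2, 23.9 and 19.9 CPM at 0.4 mGy/h, against 15.3, 18.7, 18.5 and 17.5 CPM at 0 mGy/h. In both, the 4 libraries at 1 mGy/h stood clear of the other 8, and the 0.4 mGy/h libraries overlapped the controls. The log2 fold change of XM_032937702.1 was 1.28 at 1 mGy/h (SE 0.15, edgeR adjusted p = 2.69e-05) and 0.15 at 0.4 mGy/h (SE 0.15, edgeR adjusted p = 0.749). That of XM_032941560.1 was 1.00 at 1 mGy/h (SE 0.11, edgeR adjusted p = 2.69e-05) and 0.20 at 0.4 mGy/h (SE 0.11, edgeR adjusted p = 0.73).

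XM_032936356.1 (LOC116929203) and XM_032935909.1 (LOC116928792) had the same pattern. XM_032936356.1 had 117.4, 115.8, 111.0 and 113.6 CPM at 1 mGy/h, beside 58.1, 63.2, 82.8 and 63.1 CPM at 0.4 mGy/h, against 55.2, 64.5, 61.8 and 59.0 CPM at 0 mGy/h. XM_032935909.1 had 105.0, 69.6, 77.7 and 84.2 CPM at 1 mGy/h, beside 44.9, 53.6, 44.3 and 39.8 CPM at 0.4 mGy/h, against 39.3, 48.1, 32.8 and 35.7 CPM at 0 mGy/h. Replicate 3 at 0.4 mGy/h was above every control for XM_032936356.1, and the other 3 libraries of its group lay within the control range. At 1 mGy/h the log2 fold change was 0.93 for XM_032936356.1 (SE 0.10, edgeR adjusted p = 2.64e-05) and 1.11 for XM_032935909.1 (SE 0.15, edgeR adjusted p = 0.000321).

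Of the other calls at 1 mGy/h, XM_032921579.1 (LOC116916360) was named after its values were seen, because its change was far larger than the rest. It had 378.4, 232.2, 250.4 and 258.7 CPM at 1 mGy/h, beside 61.6, 14.01, 66.8 and 33.3 CPM at 0.4 mGy/h, against 8.50, 29.8, 10.1 and 9.46 CPM at 0 mGy/h. The log2 fold change at 1 mGy/h was 4.28 (SE 0.73, edgeR adjusted p = 0.00665), a fold of 19.4, and it was kept in 10 of the 12 fits without 1 library. At 0.4 mGy/h, where replicate 2 lay inside the control range and the other 3 above it, the log2 fold change was 1.60 (SE 0.66, edgeR adjusted p = 0.73).

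XM_032922736.1 (LOC116917287), which the naming rule reached by its small pooled p although it was not called with the dose rates pooled (edgeR adjusted p = 0.0766), had 51.6, 56.1, 51.5 and 49.8 CPM at 1 mGy/h. It had 30.9, 29.5, 48.6 and 29.4 CPM at 0.4 mGy/h, against 26.3, 29.3, 28.1 and 28.8 CPM at 0 mGy/h. Replicate 3 at 0.4 mGy/h reached nearly the levels of 1 mGy/h, while the other 3 libraries of its group lay just above the controls. The log2 fold change at 1 mGy/h was 0.89 (SE 0.14, edgeR adjusted p = 0.00315).

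Among the falls at 1 mGy/h, XM_032938532.1 had the smallest adjusted p, with 112.7, 104.2, 112.6 and 113.5 CPM at 1 mGy/h, beside 144.4, 145.6, 183.1 and 158.4 CPM at 0.4 mGy/h, against 148.7, 169.7, 159.9 and 165.0 CPM at 0 mGy/h. Its log2 fold change was -0.54 at 1 mGy/h (SE 0.08, edgeR adjusted p = 0.000544) and -0.03 at 0.4 mGy/h (SE 0.07, edgeR adjusted p = 0.917). The other 3 falls were in XM_032926821.1 (LOC116920722), XM_032926818.1 (LOC116920720) and XM_032927697.1 (LOC116921409), of which the last 2 were named after their values were seen. XM_032926821.1 averaged 64.1 ± 7.95 CPM at 1 mGy/h, against 126.0 ± 25.8 CPM at 0 mGy/h (SD, n = 4 each), and XM_032926818.1 averaged 4.01 ± 1.12 CPM at 1 mGy/h, against 12.4 ± 6.15 CPM at 0 mGy/h (SD, n = 4 each). Their adjusted p-values by edgeR were 0.00927 and 0.041, and the second call was kept in 2 of 12 fits without 1 library. XM_032927697.1 fell least, by 0.22 on the log2 scale (SE 0.05, edgeR adjusted p = 0.041), and its call too was kept in 2 of 12 fits. Every library of XM_032927697.1 at 0.4 and 1 mGy/h lay below every control. Its log2 fold change at 0.4 mGy/h was -0.15 (SE 0.05, edgeR adjusted p = 0.73). With the dose rates pooled it was not called (edgeR adjusted p = 0.0975).

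Some of these genes are neighbours in the RefSeq annotation of assembly ASM2063170v1.1. On linkage group 4, LOC116920720 and LOC116920722, which both fell at 1 mGy/h, have 3 protein-coding genes between them, and LOC116920725 (XM_032926823.1) lies next to LOC116920722 with 0 between. XM_032926823.1 went the other way, with 16.1, 20.01, 9.56 and 9.50 CPM at 1 mGy/h, beside 4.02, 5.55, 5.60 and 5.40 CPM at 0.4 mGy/h, against 4.79, 5.24, 8.02 and 4.83 CPM at 0 mGy/h. All 4 libraries at 1 mGy/h were above the other 8, and the log2 fold change was 1.27 (SE 0.25, edgeR adjusted p = 0.0172), a call kept in 7 of 12 fits without 1 library. LOC116921416 and LOC116921409 also lie on linkage group 4, with 5 genes between them, and of their transcripts XM_032927704.1 rose in the pooled comparison and XM_032927697.1 fell at 1 mGy/h. Neighbours were looked up for the transcripts named here, whose choice used these values.

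The remaining rises at 1 mGy/h were named after their values were seen, except XM_032928920.1 (LOC116922549). They held 3 pairs whose levels moved together over the 28 day 8 libraries, described by the Pearson correlation of log2 CPM. XM_032941005.1 and XM_032938192.1 (LOC116930793) had 0.986 and rose 2.03-fold and 2.12-fold, XM_032928921.1 and XM_032941905.1 had 0.977 and rose 2.10-fold and 2.07-fold, and XM_032941648.1 and XM_032922159.1 had 0.895 and rose 1.24-fold and 1.30-fold. In the same order, the correlations over the 28 day 4 libraries were 0.957, 0.919 and 0.950. These transcripts were chosen as raised in the same 1 mGy/h libraries of day 8, which favours the day 8 correlations. The pairs share their libraries, and reads divided between similar records would give the same picture, which was not tested. The other rises were in XM_032941092.1 (1.97-fold), XM_032927287.1 (LOC116921083, 1.79-fold), XM_032925060.1 (LOC116919150, 1.82-fold) and XM_032928920.1 (2.26-fold). Leaving out 1 library at a time, the call of XM_032941648.1 was kept in 0 of 12 fits (lowest edgeR adjusted p = 0.0521), that of XM_032925060.1 in 3 and that of XM_032928920.1 in 4. The calls of XM_032941005.1 and XM_032938192.1 were kept in 8 fits each, and those of XM_032928921.1, XM_032941905.1, XM_032922159.1 and XM_032927287.1 in 9 each. Replicate 1 at 1 mGy/h was the highest of its 4 libraries for 12 of the 20 rises. These include XM_032941005.1 and XM_032938192.1, which moved together. The median log2 difference of that replicate from the rest of its group was 0.26 over the 20 rises, and 0.0024 over all tested transcripts.

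**Figure D2:**
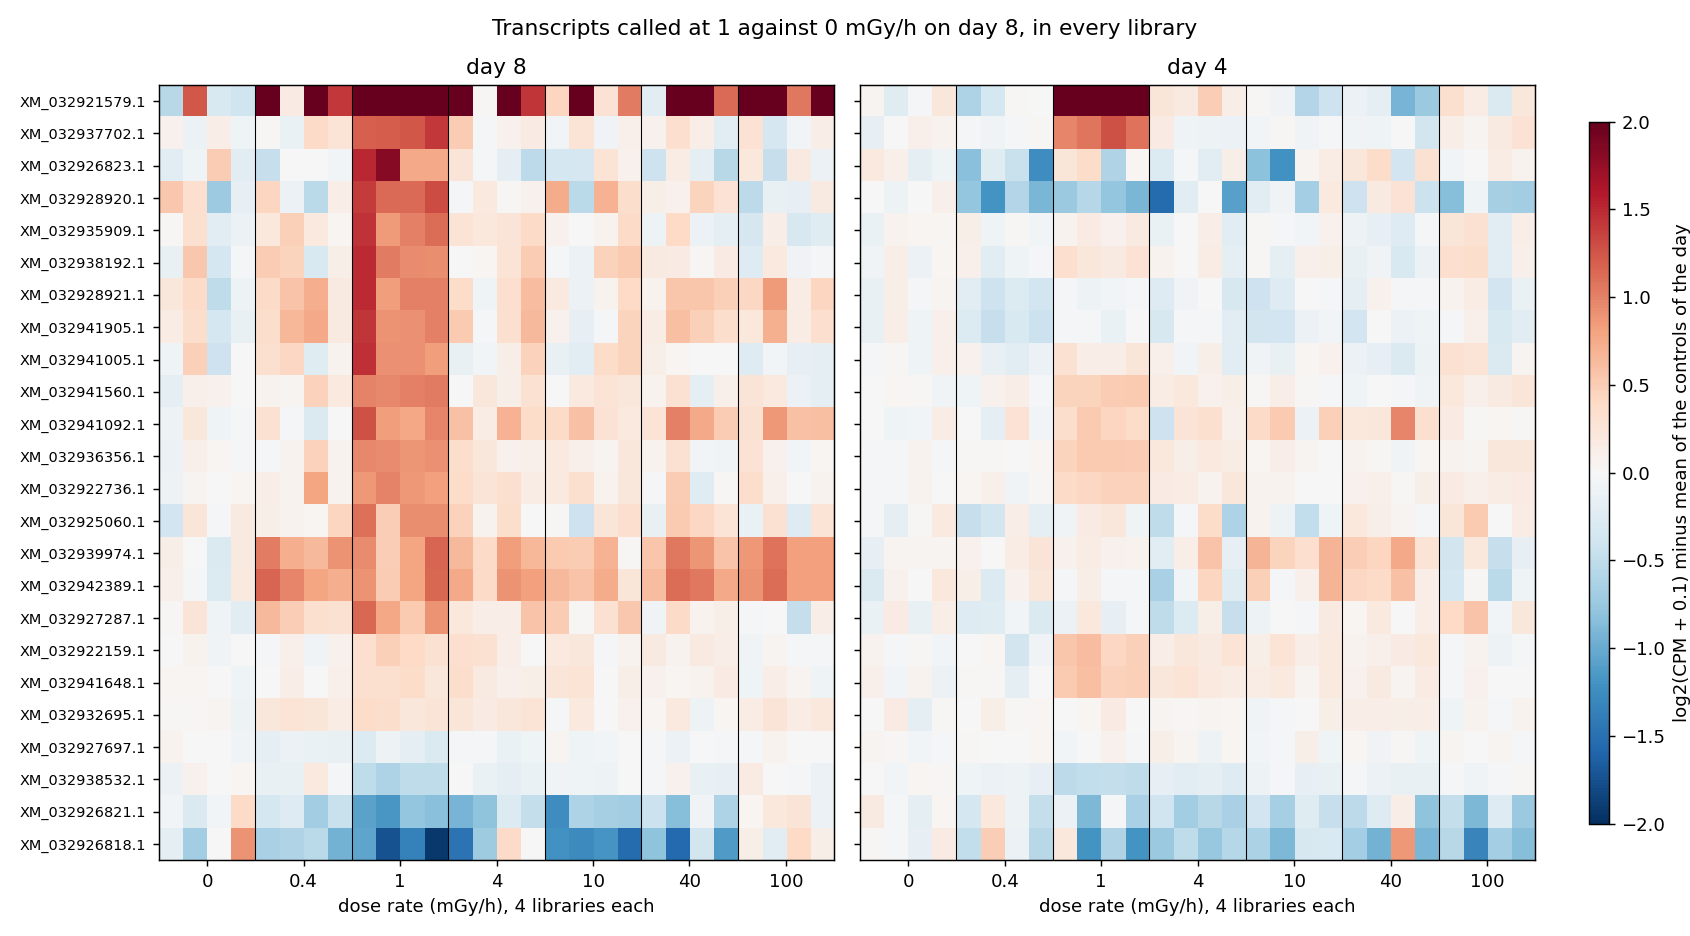
The 24 transcripts called at 1 against 0 mGy/h on day 8 (rows, from the largest rise to the largest fall) in every library (columns, 4 for each of 7 dose rates from 0 to 100 mGy/h), on day 8 at left and day 4 at right. Colour is log2(CPM + 0.1) minus the mean of the controls of the same day, cut at -2 and 2. The 4 columns at 1 mGy/h are the reddest block in the upper rows on day 8, and on day 4 part of those rows show the same block.

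The direct comparison of 1 with 0.4 mGy/h gave 12 calls (0.128% of 9367), with 10 transcripts higher and 2 lower at 1 mGy/h. It had 438 transcripts with an unadjusted p under 0.05 (4.68%). The controls are not compared here, but they enter through the filter, the scaling and the shared estimate of spread. The largest rises by the naming rule were in XM_032926823.1 (2.68-fold), XM_032934251.1 (LOC116927219, 2.58-fold) and XM_032928920.1 (2.35-fold), and the falls were in XM_032926812.1 and XM_032938532.1. XM_032934251.1 had 8.59, 6.28, 3.80 and 5.09 CPM at 1 mGy/h, beside 1.90, 2.23, 2.70 and 2.36 CPM at 0.4 mGy/h, a log2 difference of 1.37 (SE 0.27, edgeR adjusted p = 0.0349). Its symbol is shared by 3 records, and how reads were divided between them is not known. XM_032926812.1 had 21.2, 20.6, 16.9 and 22.3 CPM at 1 mGy/h, beside 45.2, 44.1, 44.8 and 39.3 CPM at 0.4 mGy/h, a log2 difference of -1.10 (SE 0.20, edgeR adjusted p = 0.015). The groups did not overlap in either transcript, and neither was called at 1 against 0 mGy/h (edgeR adjusted p = 0.0685 for XM_032934251.1 and 0.0656 for XM_032926812.1).

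The other calls between the 2 dose rates were XM_032937702.1, XM_032935909.1, XM_032941560.1, XM_032936356.1, XM_032941092.1, XM_032922159.1 and XM_032936720.1, all higher at 1 mGy/h. XM_032936720.1, named after its values were seen, averaged 9.68 ± 2.21 CPM at 1 mGy/h, beside 4.57 ± 1.27 CPM at 0.4 mGy/h, on either side of the 6.59 ± 1.27 CPM at 0 mGy/h (SD, n = 4 each). The 2 dose rates had opposite signs there, and the pooled log2 fold change was 0.02 (SE 0.17, edgeR adjusted p = 0.972). The count of 12 was 7 without replicate 1 at 0.4 mGy/h and 6 without replicate 2 at 1 mGy/h, and a fit to the 8 libraries alone gave 1 call.

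Set against the 16 libraries at 4 to 100 mGy/h, the 2 lowest dose rates differed in 308 transcripts (3.29% of 9367), 150 higher and 158 lower. The controls again entered only through the filter, the scaling and the shared estimate of spread. Of the 8 transcripts called in the pooled comparison with 0 mGy/h, 5 were higher here too: XM_032937702.1, XM_032935909.1, XM_032941560.1, XM_032936356.1 and XM_032932695.1. The comparisons share the 8 low dose-rate libraries. In the first 4 of the 5, the difference lay mainly at 1 mGy/h, with means of 13.4, 84.1, 34.9 and 114.4 CPM. The 0.4 mGy/h means, 6.10, 45.6, 20.1 and 66.8 CPM, were near those of the 16 libraries (5.87, 40.7, 19.0 and 65.6 CPM). For XM_032932695.1 both low groups averaged higher, with 33.4 (0.4 mGy/h) and 35.4 CPM against 31.5 CPM. Within the 16, however, 4 mGy/h averaged 33.5 CPM, level with 0.4 mGy/h, and 100 mGy/h averaged 32.7 CPM. The means at 10 and 40 mGy/h were lower, at 30.0 and 29.6 CPM. The 0.4 mGy/h group alone was not tested against the 16. The count of 308 depended on single libraries, being 57 without replicate 1 at 1 mGy/h, 171 without replicate 2, 576 without replicate 3 and 138 without replicate 4 of that group, and 88 without replicate 2 and 81 without replicate 4 at 0.4 mGy/h.

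Part of the transcripts called at 1 mGy/h also differed there from the other exposed dose rates. Against the mean of the other 5 exposed dose rates (a comparison added after the data were seen), 53 transcripts differed at 1 mGy/h (0.566% of 9367), with 39 higher and 14 lower. On day 4 the same comparison gave 153 calls (1.63% of 9369), and 10 transcripts were called in the same direction on both days, which is 18.9% of the day 8 calls and 6.54% of those of day 4. Of the 24 transcripts called at 1 against 0 mGy/h, 18 were called here in a comparison that shares its 1 mGy/h libraries. The 6 that were not were XM_032942389.1, XM_032939974.1, XM_032932695.1, XM_032941648.1, and the falls XM_032926821.1 and XM_032926818.1. XM_032926821.1 averaged 64.1 CPM at 1 mGy/h, and its means at the other 5 ran from 72.1 (10 mGy/h) to 133.2 CPM (100 mGy/h). XM_032926818.1 averaged 4.01 CPM at 1 mGy/h, and its means there ran from 4.58 (10 mGy/h) to 12.4 CPM (100 mGy/h). XM_032941092.1 was called here, yet it averaged 16.5 ± 2.96 CPM over the 16 libraries at 4 to 100 mGy/h, against 11.5 ± 1.28 CPM at 0 mGy/h (SD, n = 4). In 12 of the 24, all 4 libraries at 1 mGy/h lay outside the range of all 24 other day 8 libraries. Over all tested transcripts, 18 (0.192%) lay above the other 24 libraries at 1 mGy/h and 2 (0.0214%) lay below. The count of 53 was 16 without replicate 1 and 31 without replicate 4 at 1 mGy/h.

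**Figure D3:**
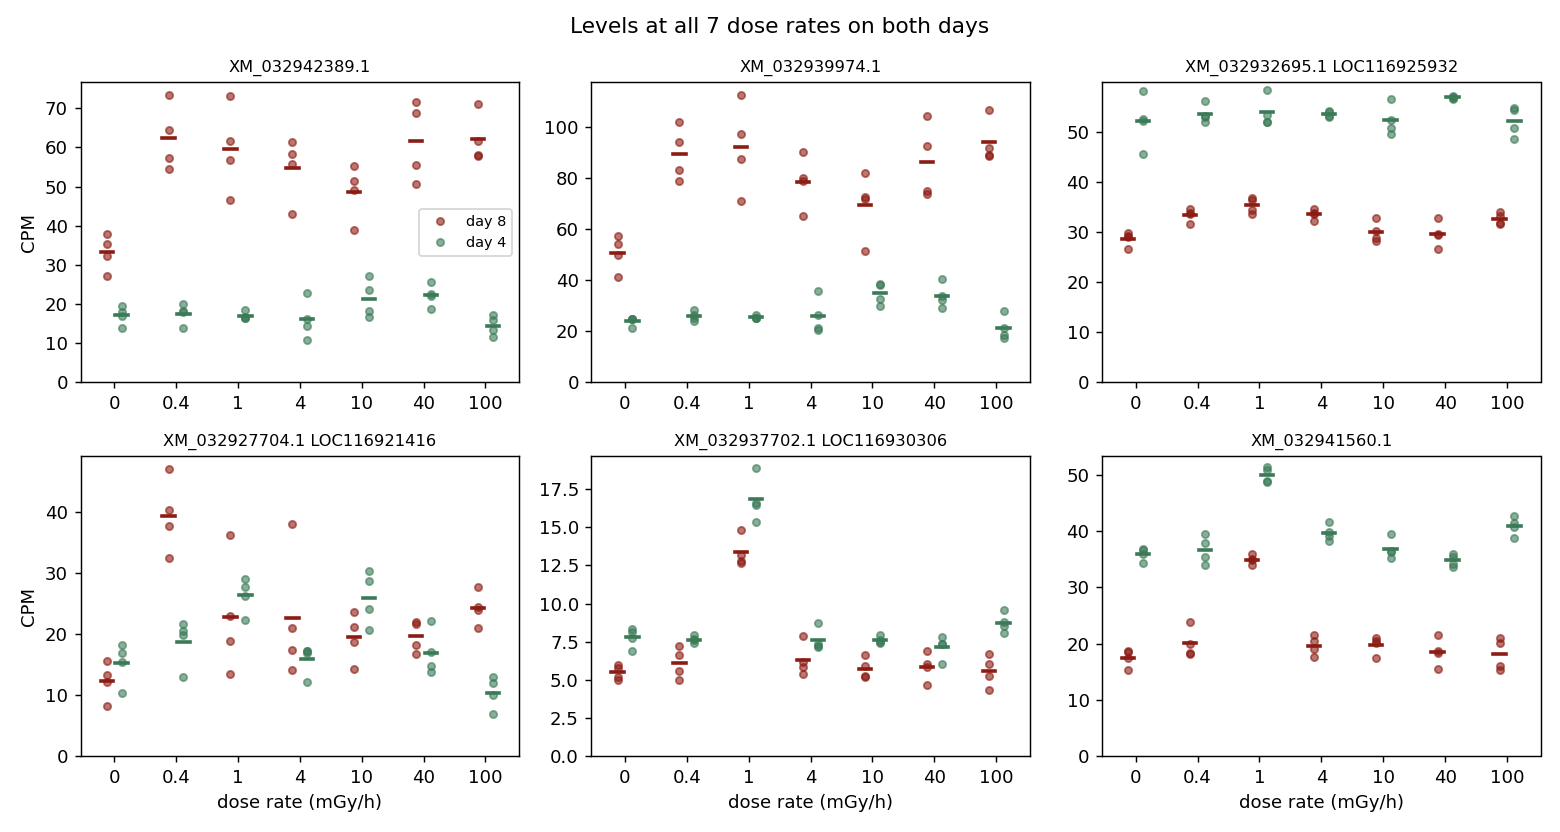
Levels in CPM (vertical axis) of 6 transcripts at all 7 dose rates (horizontal axis, mGy/h), with day 8 in red and day 4 in green, points for libraries and short lines for group means (n = 4). XM_032942389.1 and XM_032939974.1 had a higher mean at every exposed dose rate than at 0 mGy/h on day 8, and on day 4 lay near the controls at 0.4 and 1 mGy/h, while XM_032937702.1 and XM_032941560.1 peaked at 1 mGy/h on both days.

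The day 4 libraries are separate from those of day 8, but anything the 1 mGy/h groups of both days share besides the dose rate cannot be told apart from it. At 1 against 0 mGy/h, 63 transcripts changed on day 4 (0.672% of 9369). All 24 of the day 8 calls were tested there, and 8 were called in the same direction and 0 in the opposite one. The 8 are 33.3% of the day 8 calls and 12.7% of the day 4 calls, beside the 0.672% called among all transcripts. They were XM_032937702.1, XM_032941560.1, XM_032936356.1, XM_032922736.1, XM_032921579.1, XM_032941648.1 and XM_032922159.1, which were higher, and XM_032938532.1, which was lower. The day 8 call of XM_032941648.1 was lost without any 1 of the 12 libraries. The count of 8 was 5 without control replicate 3 or control replicate 4 of day 8.

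The day 4 values of these transcripts had small spreads. XM_032937702.1 averaged 16.8 ± 1.498 CPM at 1 mGy/h, beside 7.65 ± 0.207 CPM at 0.4 mGy/h, against 7.78 ± 0.628 CPM at 0 mGy/h (SD, n = 4 each). Its log2 fold change at 1 mGy/h was 1.12 (SE 0.08, edgeR adjusted p = 7.46e-09). XM_032921579.1 had 206.9, 190.9, 210.6 and 172.8 CPM at 1 mGy/h, beside 12.3, 14.8, 19.3 and 18.9 CPM at 0.4 mGy/h, against 19.7, 16.0, 18.3 and 22.1 CPM at 0 mGy/h. Its log2 fold change on day 4 was 3.36 (SE 0.19, edgeR adjusted p = 7.81e-11), a fold of 10.3, and the 1 mGy/h libraries stood far above every other library of that day. XM_032938532.1 averaged 160.8 ± 1.82 CPM at 1 mGy/h on day 4 and 210.0 ± 4.81 CPM at 0.4 mGy/h, against 227.6 ± 6.69 CPM at 0 mGy/h (SD, n = 4 each). Its log2 fold change was -0.54 on day 8, against -0.50 on day 4.

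For XM_032941560.1, XM_032936356.1 and XM_032922736.1 the log2 fold changes at 1 mGy/h were 1.00, 0.93 and 0.89 on day 8, against 0.48, 0.50 and 0.43 on day 4. For XM_032941648.1 and XM_032922159.1 they were 0.31 and 0.38 on day 8, against 0.52 for each on day 4. The difference between days at 1 mGy/h alone was not tested. The 16 day 8 calls that were not called on day 4 included XM_032935909.1, whose log2 fold change there was 0.12 (SE 0.09, edgeR adjusted p = 0.531), and XM_032928920.1. XM_032928920.1 had 50.2, 41.6, 41.8 and 46.8 CPM at 1 mGy/h on day 8, against 27.6, 23.97, 11.5 and 16.9 CPM at 0 mGy/h. On day 4 it had 21.0, 23.8, 20.6 and 18.7 CPM at 1 mGy/h, against 35.2, 32.8, 35.3 and 37.9 CPM at 0 mGy/h, a log2 fold change of -0.74 that was not called (edgeR adjusted p = 0.177).

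**Figure D4:**
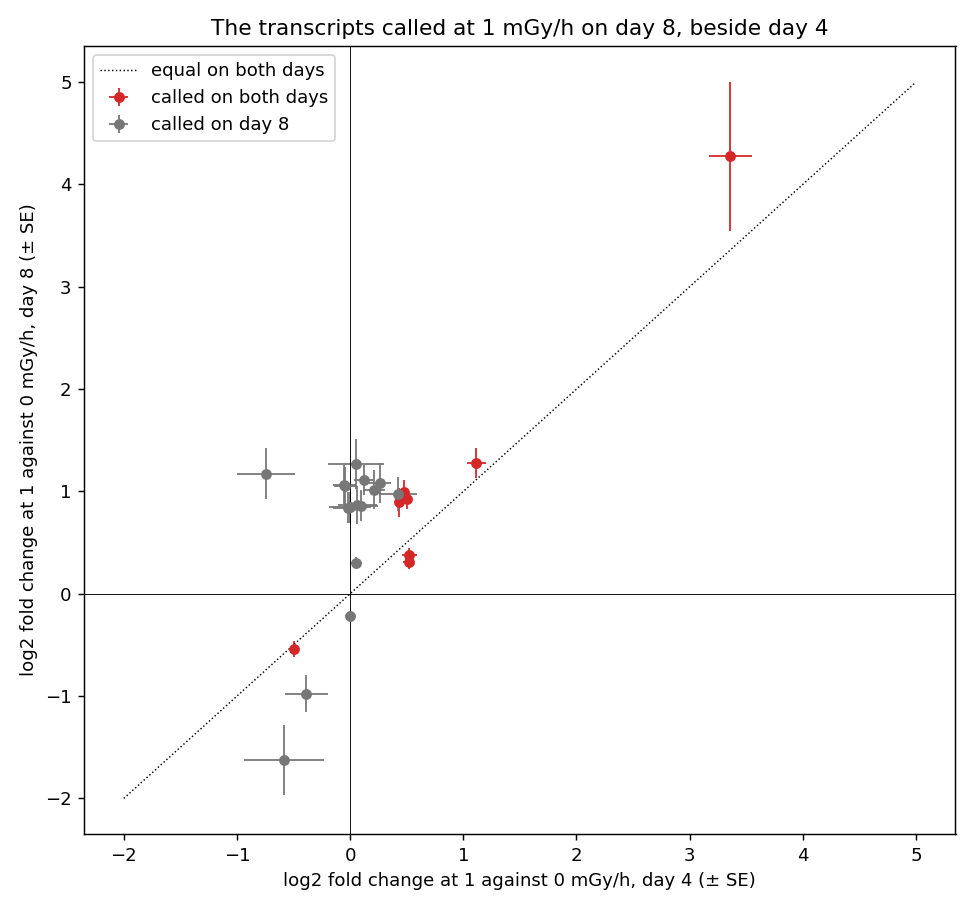
Log2 fold change at 1 against 0 mGy/h on day 8 (vertical axis) and on day 4 (horizontal axis) of the 24 transcripts called on day 8, with bars of 1 SE, in red for the 8 called on both days and in grey for the 16 called on day 8. Of the red points, XM_032921579.1 is farthest out at 4.28 on day 8 and 3.36 on day 4, and XM_032941648.1, XM_032922159.1 and XM_032938532.1 lie below the dotted line of equal change, and many grey points lie near 0 on the day 4 axis.

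Separation at 1 mGy/h from every other library of the day was seen on both days in 8 transcripts, 7 higher and 1 lower, and no transcript was above on one day and below on the other. Among the transcripts tested on day 8, 20 met this criterion on day 8 and 22 on day 4. The 7 were XM_032921579.1, XM_032922736.1, XM_032935550.1 (LOC116928462), XM_032936352.1 (LOC116929200), XM_032936356.1, XM_032937702.1 and XM_032941560.1, and the 1 was XM_032938532.1. Several of the 7 moved together over the day 8 libraries, so they are not separate observations. The Pearson correlation of log2 CPM was 0.971 for XM_032936352.1 with XM_032935550.1. For XM_032936356.1 it was 0.943 with XM_032922736.1 and 0.935 with XM_032941560.1. Choice by the same 1 mGy/h libraries favours such correlations. XM_032935550.1 and XM_032936352.1, named after their values were seen, were abundant transcripts with small rises. XM_032936352.1 averaged 1618 ± 52.7 CPM at 1 mGy/h, against 1297 ± 58.0 CPM at 0 mGy/h on day 8 (SD, n = 4 each), and was not called against the controls (edgeR adjusted p = 0.0642) but was called against the other exposed dose rates (edgeR adjusted p = 0.0132). LOC116929200 and LOC116929203 (XM_032936356.1), on linkage group 8, lie next to each other with 0 protein-coding genes between and without overlap.

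Replicate 3 at 0.4 mGy/h was above all 4 day 8 controls in 6 of these 7 transcripts and the highest of its group in 6. Because several of the 7 moved together, these counts do not stand for separate observations. Replicates 1, 2 and 4 of that group were above all controls in 2, 1 and 5 of the 7. No library at 0.4 mGy/h reached the range of 1 mGy/h in any of them, by the way the 7 were chosen. Over the 20 rises called at 1 mGy/h, replicates 1 to 4 at 0.4 mGy/h were above all controls in 8, 10, 11 and 11. They were the highest of their group in 6, 5, 8 and 1 of the 20. Both the 7 and the 20 were chosen with these same controls lying below 1 mGy/h, which favours counts above the controls. The shares over all tested transcripts were not counted, so the counts have no background to be read against.

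With the 2 dose rates pooled, 35 transcripts changed on day 4 (0.374% of 9369), 26 higher and 9 lower. XM_032937702.1, XM_032941560.1 and XM_032936356.1 were called on both days, which is 37.5% of the day 8 calls and 8.57% of the day 4 calls. A joint edgeR model held both days (24 libraries, 3 dose rates). In it the test of the difference in the pooled effect between days gave 0 calls among 9395 transcripts (0%), with 1044 at an unadjusted p under 0.05 and a lowest adjusted p of 0.0674. The tools differed here, since DESeq2 made 135 calls for the same difference. The edgeR count was 25 without replicate 2 at 1 mGy/h of day 4, 10 without control replicate 2 of day 8, 9 and 6 without replicates 2 and 3 at 1 mGy/h of day 8, and at most 3 without any other library.

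The first principal component of log2 CPM over the 28 day 8 libraries held 26.6% of the variance. The 0.4 mGy/h libraries scored -1.60, 11.4, 47.9 and 24.4 and the 1 mGy/h libraries 66.0, 35.6, -19.0 and 21.4, against -19.1, 14.3, -20.2 and -17.6 at 0 mGy/h. The exposed libraries were higher on average by 33.9 (exact permutation test over all arrangements of the 12 libraries, 2-sided p = 0.0485), with control replicate 2 and replicate 3 at 1 mGy/h on the far side. The difference did not pass when the component was computed on the 12 libraries alone (33.0, exact permutation p = 0.0848) or on the 500 most variable transcripts (23.4, exact permutation p = 0.0828).

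**Figure D5:**
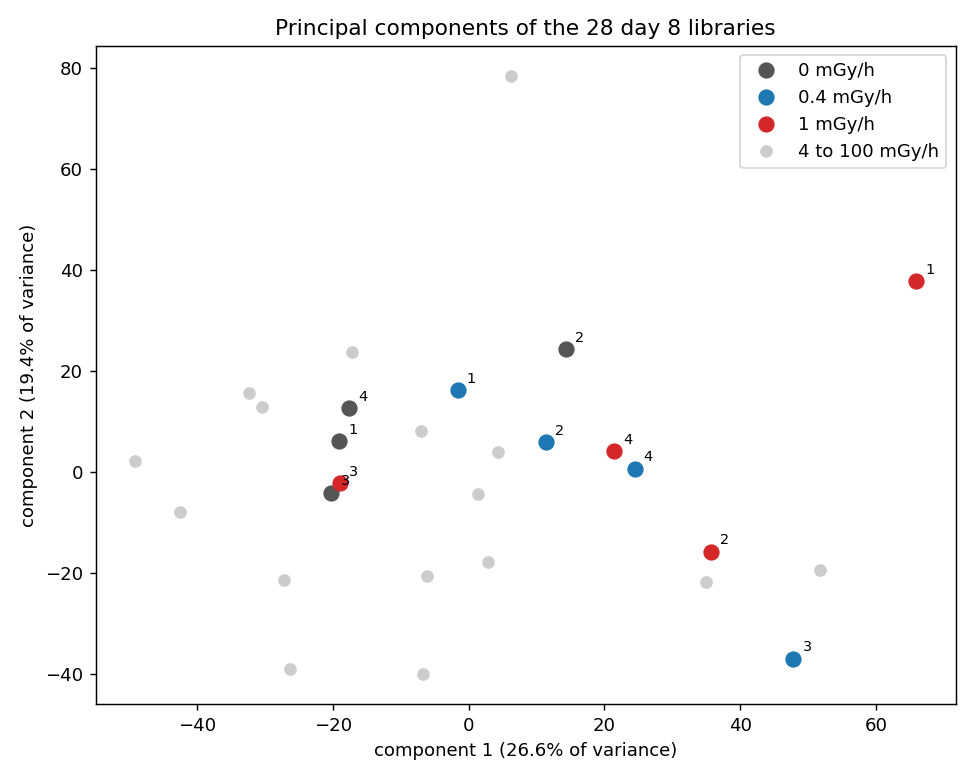
Scores of the 28 day 8 libraries on the first (horizontal axis, 26.6% of variance) and second (vertical axis, 19.4%) principal components of log2 CPM, with replicate numbers beside the 0, 0.4 and 1 mGy/h points and the 16 libraries at 4 to 100 mGy/h in pale grey. Replicate 1 at 1 mGy/h (66.0) and replicate 3 at 0.4 mGy/h (47.9) lie farthest to the right of the 12.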

How the data were processed

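RNA from whole animals was read as pairs of 100 bases on a BGISEQ-500 DNA nanoball platform, per the labels' protocols. The values are whole-number read counts per RefSeq transcript record as deposited by the authors, not normalized, in 1 table per day. HISAT is named in the submitters' processing notes; its version, the counting program, the genome build, the use of strand and the treatment of reads shared between records are not given in the sources used here, so overlapping and near-identical records are uncertain.

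Library codes in the column headers matched the labels for all 56 columns, and groups follow the labelled dose rate and day. In R 4.3.3, edgeR 4.0.16 (filterByExpr, TMM, glmQLFit, glmQLFTest) was fitted to the 28 libraries of a day with 1 coefficient per dose rate, and contrasts weighted the dose rates equally. Tests were 2-sided with Benjamini-Hochberg adjustment over all tested transcripts. The SE was taken as log2 fold change over root F. The difference between days used 24 libraries. Log2 CPM used a prior count of 2. The common biological coefficient of variation on day 8 was 0.332. Models were tested on simulated counts. DESeq2 1.42.0 and sva 3.50.0 (4 surrogate variables) served as alternatives, besides other size factors, no filter, fewer libraries, 1 coefficient for the 8 libraries, a replicate block, and leaving out each library.

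Duplicates were looked for with a chi-square test over transcripts reaching a summed count of 20; the lowest value per degree of freedom among the 12 libraries was 24.1. Transcripts were named by rule: up to 12 rises and 12 falls called in the pooled contrast with a mean of at least 50 counts, those called at both dose rates, up to 3 rises and 3 falls between the dose rates, and, up to 10 in all, those of smallest pooled p. The comparisons and lists were chosen with earlier results of these data known. Of the tested records, 6371 (68.0%) matched a symbol in a RefSeq table of assembly ASM2063170v1.1 when the version number was ignored. That table gives no descriptions, so gene lists by function were not evaluated. No sequences were used.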

Additional observations from a re-analysis of the deposited data

Results flagged for a closer look

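In 8 of 90 groups of 4 libraries (30 named transcripts at 0, 0.4 and 1 mGy/h of day 8), 1 library stood far from the other 3 by Dixon's criterion. Chance gives about 4.5 in separate groups not chosen by their values. The transcripts here were named from these values and some move together, so 4.5 is no measure of an excess. Of the 8 outliers, 3 were the same library, replicate 1 at 1 mGy/h, which was high for XM_032938192.1 (518.4 CPM), XM_032941005.1 (246.1 CPM) and XM_032941905.1 (194.1 CPM). The first 2 transcripts moved together in all libraries, so they are not separate observations. Without that library the number of calls at 1 against 0 mGy/h was 11 instead of 24. Replicate 3 at 0.4 mGy/h was high for XM_032922736.1, with 48.6 CPM. Replicate 1 at 0.4 mGy/h was low for XM_032926823.1, with 4.02 CPM, and control replicate 3 was high for the same transcript, with 8.02 CPM. Control replicate 2 was high for XM_032921579.1, with 29.8 CPM. Replicate 2 at 1 mGy/h was low for XM_032938532.1, with 104.2 CPM, and lay on the side of the fall.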

How the results depend on the processing

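Counts of calls are given in the order pooled against 0, 0.4 against 0, 1 against 0 and 1 against 0.4 mGy/h on day 8, where edgeR gave 8, 2, 24 and 12. DESeq2 gave 27, 10, 54 and 26, and held all of the edgeR calls. It gave 766 for 0.4 and 1 against 4 to 100 mGy/h, 204 for 1 mGy/h against the other 5 exposed dose rates, 14 and 25 for the same-direction calls on both days at 1 mGy/h against 0 mGy/h and against the other exposed dose rates (8 and 10 with edgeR), and 135 for the interaction with day. Fits to only the libraries compared gave 0, 0, 11 and 1, and 8 of the 11 were among the main edgeR calls. With surrogate variables the counts were 4, 0, 19 and 23, with 26 against 4 to 100 mGy/h and 31 for 1 mGy/h against the other exposed dose rates. Of these, 2 of the 4, 18 of the 19 and 12 of the 23 were among the main edgeR calls. Of the 4, 1 was a fall, while all main pooled calls were rises. The pooled count was 5 with RLE size factors, 5 without a filter on low counts, where the count against 4 to 100 mGy/h was 199, and 2 with 1 coefficient for the 8 libraries. The cause of these changes was not tested. The fits to only the libraries compared hold fewer libraries and also have their own filter, scaling and estimate of spread.

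Leaving out 1 library at a time gave 0 to 9 calls pooled, 0 to 4 at 0.4 mGy/h, 9 to 27 at 1 mGy/h, 6 to 12 between the dose rates, 57 to 576 against 4 to 100 mGy/h, 16 to 59 for 1 mGy/h against the other exposed dose rates, 0 to 25 for the interaction, and 5 to 8 and 7 to 11 for the calls on both days. Where this left a group with 3 libraries, the spread was still shared by all groups. The pooled log2 fold change of XM_032936720.1 ran from -0.10 to 0.11, changing sign in 5 of 12 fits. No other named value changed sign in any of these fits, and of the 200 values under the other alternatives of results called in the report, 144 kept the call and 56 lost it. Of the 154 of results not called, 11 gained a call. Leaving out 1 library, 256 of 384 called values kept the call and 128 lost it. On the first principal component, the difference was 33.0 on the 12 libraries alone and 23.4 on the 500 most variable transcripts, neither past the threshold.

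With the replicate number as a block, the pooled count was 8, with 1 call at 0.4 mGy/h, 20 at 1 mGy/h, 11 between the dose rates and 2 for the interaction with day. The numbers showed no clear pairing of the libraries. Deviations from the group means of same-numbered libraries correlated over 0.1 in 6 of 12 pairs (range -0.338 to 0.379). Pairs with different numbers had a mean correlation of -0.016, and 3 of 12 libraries correlated best with their own number. So few pairs cannot decide whether the numbers mark a shared beaker or day. With 4 libraries a group and a median SE of 0.12, small changes could be missed.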
